A study of Mus musculus with 2 samples.

Results

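The 8 genes described here, Krt7, Krt8, Krt18, Krt19, Cldn4, Sfn, Lgals3 and Itgb6, are commonly used to mark the transitional state of the alveolar epithelium. They were listed by name and make up 8 of the 27998 genes counted in droplet-based single-cell RNA-seq of mouse lung. Of the 2 libraries, 1 came from wild-type C57BL/6 mice kept in room air (21% oxygen) and 1 from wild-type C57BL/6 mice kept in hyperoxia (80% oxygen) from birth (P0), and both were taken at postnatal day 14 (P14). Each library pooled the lungs of 8 mice, so that each group was 1 sample. Differences between the libraries therefore have no replicate check and no test, and the 95% intervals below cover counting error only.

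The alveolus is lined by type 2 cells, which make surfactant, and by flat type 1 cells, which carry gas exchange. After injury, type 2 cells can divide and turn into type 1 cells, and on the way they pass through a transitional state with raised keratins, tight junction and stress genes. The same genes are also used by normal type 1 and airway cells, so that a level in a type 2 cell is read beside the levels in those classes. Lungs of newborn mice kept in hyperoxia are a model of bronchopulmonary dysplasia, the lung disease of infants born very early.

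Keratins build the intermediate filaments of epithelia, and each filament pairs a type II keratin, here Krt7 or Krt8, with a type I keratin, here Krt18 or Krt19. Krt7, Krt8 and Krt18 lie on chromosome 15 of the mouse genome (GRCm38). Krt8 (chr15:101996698-102004482, minus strand) and Krt18 (chr15:102028180-102032027, plus strand) point away from each other, with 23697 bases and 0 annotated genes between them, while Krt7 (chr15:101411043-101430313, plus strand) ends 566384 bases before Krt8. Krt19 (chr11:100140810-100148665, minus strand) lies apart from them. The other members are Cldn4 (chr5:134945119-134946934, minus strand), Sfn (chr4:133600556-133602168, minus strand), Lgals3 (chr14:47367751-47386160, plus strand) and Itgb6 (chr2:60598292-60722643, minus strand). All 8 are protein-coding genes, and 2 of them overlap another annotated gene, Krt7 with Gm671 and Krt8 with Gm36026, each on the opposite strand.

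The stretch of 250 bases before the start of transcription is shown for 4 members, from RefSeq (GRCm38.p6), because their levels carry the results below. Lgals3 had the largest ratio between the libraries in type 2-like cells, and Krt7, Krt8 and Krt18 were keratins measured well in every epithelial class. Capitals mark SP1 motifs (GGGCGG on either strand), and all sequences run 5′ to 3′ along the gene's own strand.
Lgals3: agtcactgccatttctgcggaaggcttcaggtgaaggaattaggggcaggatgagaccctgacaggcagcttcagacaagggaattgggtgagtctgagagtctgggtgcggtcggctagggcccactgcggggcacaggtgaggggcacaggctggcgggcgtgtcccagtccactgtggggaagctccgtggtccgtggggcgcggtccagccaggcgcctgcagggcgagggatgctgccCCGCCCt
Krt7: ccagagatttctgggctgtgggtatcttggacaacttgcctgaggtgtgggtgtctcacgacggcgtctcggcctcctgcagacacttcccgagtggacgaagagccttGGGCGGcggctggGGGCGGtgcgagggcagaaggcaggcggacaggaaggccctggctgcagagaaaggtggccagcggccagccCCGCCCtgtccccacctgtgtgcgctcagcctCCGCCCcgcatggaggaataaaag
Krt8: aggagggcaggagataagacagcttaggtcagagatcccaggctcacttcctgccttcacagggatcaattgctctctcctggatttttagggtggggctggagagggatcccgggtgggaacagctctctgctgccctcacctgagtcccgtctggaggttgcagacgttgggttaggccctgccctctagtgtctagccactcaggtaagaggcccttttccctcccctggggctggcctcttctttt
Krt18: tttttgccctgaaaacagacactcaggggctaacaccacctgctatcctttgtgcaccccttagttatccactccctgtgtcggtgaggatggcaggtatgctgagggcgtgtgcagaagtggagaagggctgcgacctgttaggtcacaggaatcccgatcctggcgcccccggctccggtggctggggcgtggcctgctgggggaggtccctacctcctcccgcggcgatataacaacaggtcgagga
The starts are those of RefSeq and differ from the gene spans given above, so that the stretches of Lgals3 and Krt7 lie inside those spans and the stretches of Krt8 and Krt18 overlap theirs. They lie at chr14:47373610-47373859 (plus strand), chr15:101412153-101412402 (plus), chr15:102004343-102004592 (minus) and chr15:102027966-102028215 (plus). Promoters were found for 7 members, Krt19 being the exception. The letters of the SP1 motif were found in 3 of the 7, in Krt7 at 4 places, in Lgals3 at 1 and in Cldn4 at 1, against 32.7% of the 32851 promoters of the table. The AP-1 motif (TGANTCA on either strand) was found at 2 places in Cldn4 and in no other member, against 6.75% of all promoters. The letters GGAATG (TEAD) and those of the TATA box motif, spelled TATAAA, were found in 0 of the 7 members, against 12.6% and 12.4%. A match is a description of the letters in this window and does not show a bound site.

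Counts were summed over the cells of a class and are given as CPM, the UMIs of a gene per 1000000 UMIs of the class. A UMI (unique molecular identifier) marks 1 captured molecule. The room-air library kept 3680 of 4234 barcodes and the hyperoxia library 10472 of 13223, at medians of 8057 and 7225 UMIs per cell, and 17 barcodes occurred in both. Cells were grouped without the 8 members and named by markers. The type 2-like class held 163 cells in room air and 850 in hyperoxia, the type 1-like class 63 and 138, and the airway-like class 30 and 108. The airway-like cells were 19 and 56 ciliated-like and 11 and 52 club-like cells. A further 64 and 341 cells of the epithelial clusters, at medians of only 1604 and 1264 UMIs, stayed unnamed. Their leading genes included markers of other lineages. The names were checked against their markers. Type 2 markers summed to 242360 CPM in type 2-like cells of room air and 200570 CPM in hyperoxia, and type 1 markers to 1977 and 825 CPM there, but to 29005 and 24048 CPM in type 1-like cells. The type 1-like cells also held type 2 markers at 43739 and 40175 CPM. Some of these cells held markers of another class. A type 1-like sub-cluster of 11 and 22 cells also held the type 2 gene Sftpc at 106000 CPM in room-air cells and 89182 CPM in hyperoxia cells, and the 53 hyperoxia cells of a further type 1-like sub-cluster held it at 14472 CPM, against 1519 CPM in its 24 room-air cells. The ciliated-like cells of room air carried the club cell gene Scgb1a1 at 276490 CPM, against 2086 CPM in hyperoxia.

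In type 2-like cells, Lgals3 stood out. Its level was 4.24-fold higher in hyperoxia than in room air, Krt8 and Krt19 were higher by smaller ratios, and for the other members the interval of the ratio took in no difference. Lgals3 encodes galectin-3, a lectin that binds galactose-bearing sugars and is abundant in macrophages. Its level was 26.4 CPM (20.3 to 33.7, 64 UMIs) in type 2-like cells of room air and 112 CPM (106 to 118, 1312 UMIs) in hyperoxia cells, for a log2 ratio of 2.08 (1.72 to 2.47) and a ratio of 4.24 (3.30 to 5.54). The groups' intervals lay far apart. Krt8, the keratin whose name the transitional state often carries, stood at 109.8 CPM (97.0 to 124) in room air. In hyperoxia it stood at 152 CPM (145 to 159), for a log2 ratio of 0.47 (0.28 to 0.66). Its interval left out 0, but the ratio was under 2-fold. In the 70 and 287 type 2-like cells with no UMI of 8 markers of other lineages, the interval of Krt8 took in 0, at 0.26 (-0.01 to 0.54), while Lgals3 stood at 2.29 (1.72 to 2.92).

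The partner keratins differed less. The level of Krt18 was 130.0 CPM (116 to 145) in room-air cells and 144 CPM (137 to 151) in hyperoxia cells, for a log2 ratio of 0.14 (-0.03 to 0.32). Krt7 was at 73.5 CPM (63.1 to 85.1) and 70.6 CPM (65.9 to 75.6), a log2 ratio of -0.06 (-0.29 to 0.18). The intervals of both ratios took in 0. Krt19 was low but differed, with 22.7 CPM (17.1 to 29.5, 55 UMIs) in room-air cells and 34.1 CPM (30.9 to 37.7, 400 UMIs) in hyperoxia cells, for a log2 ratio of 0.59 (0.18 to 1.02). Without doublet removal this interval took in 0, at 0.21 (-0.15 to 0.59).

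The remaining 3 members were low in type 2-like cells of both libraries. Sfn, which encodes 14-3-3 sigma, a p53 target that holds the cell cycle, stood at 24.4 CPM (18.5 to 31.4) in room-air cells and 22.7 CPM (20.1 to 25.6) in hyperoxia cells. Itgb6, the beta chain of the integrin that frees active TGF-beta from its latent form, was at 9.49 CPM (6.02 to 14.2) and 10.6 CPM (8.80 to 12.6). Neither ratio left out 0, at log2 -0.10 (-0.51 to 0.33) for Sfn and 0.16 (-0.49 to 0.87) for Itgb6. Cldn4, a tight junction protein, had 5 UMIs in the type 2-like cells of room air (2.06 CPM, 0.67 to 4.82) and 9 in hyperoxia (0.77 CPM, 0.35 to 1.46), so that the cells of neither library showed more than a trace of it.

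**Figure D1:**
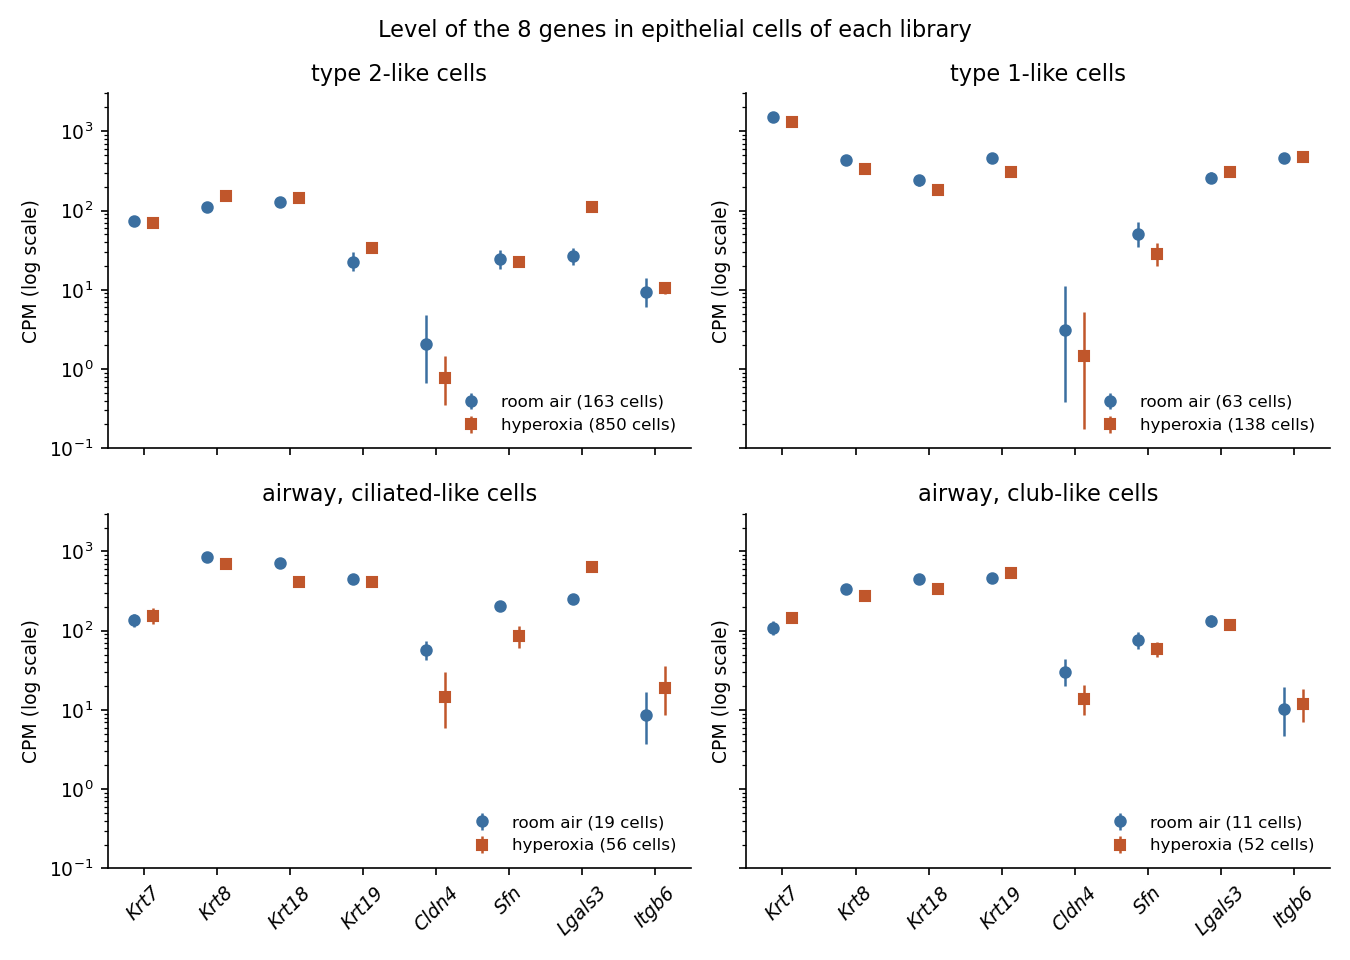
Level of each member in CPM (log axis) in type 2-like, type 1-like, ciliated-like and club-like cells. Circles are room air, squares hyperoxia and bars 95% Poisson intervals for counting error, with the number of cells in each legend. In type 2-like cells Lgals3 lay at 26.4 CPM in room-air cells and 112 CPM in hyperoxia cells, while Krt7 lay at 73.5 and 70.6 CPM.

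Among the 2375 genes with a mean of at least 50 CPM in type 2-like cells, 24 (1.01%) were at least 2-fold higher in hyperoxia and 36 (1.52%) at least 2-fold lower. The members that reached this level were Krt7, Krt8, Krt18 and Lgals3, and of these 4 Lgals3 was past 2-fold and 0 were 2-fold lower. Their median log2 ratio was 0.31, beside 0.07 for all 2375 genes. An interval wholly above 0 was common, at 33.4% of the genes, and an interval below 0 was found for 22.1%, beside 2 and 0 of the 4 members.

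**Figure D2:**
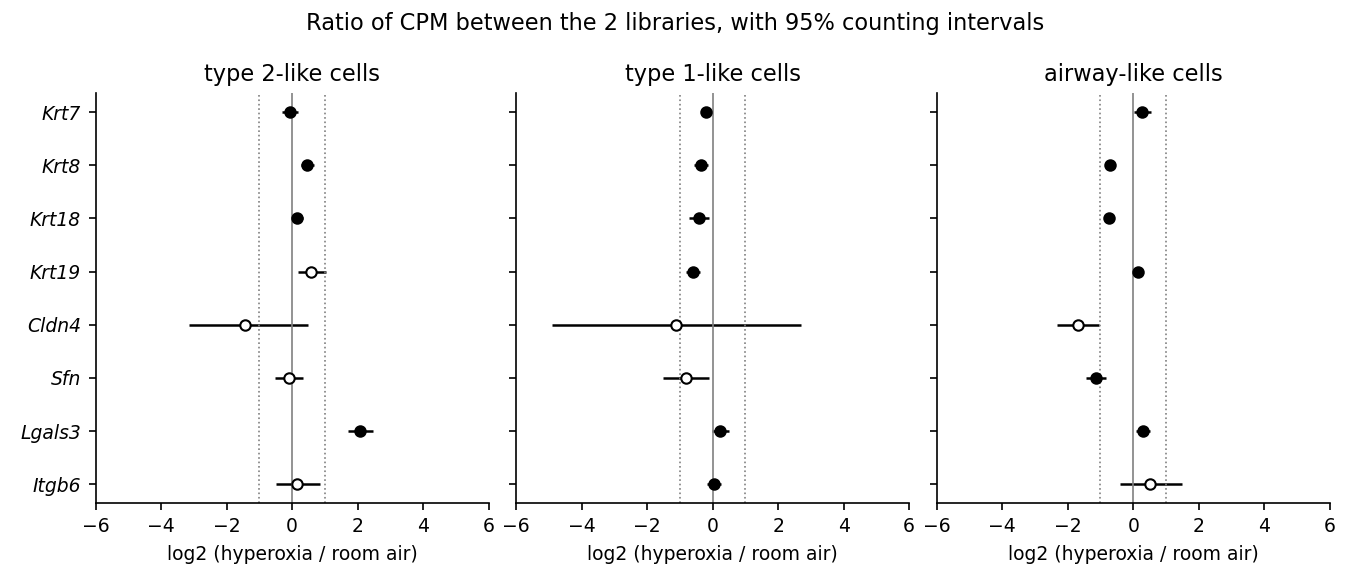
Log2 ratio of CPM, hyperoxia over room air, for each member in type 2-like, type 1-like and airway-like cells, with 95% counting intervals. Filled points are genes with a mean of at least 50 CPM, open points genes below it, and dotted lines mark a ratio of 2. Lgals3 in type 2-like cells (2.08) and Sfn in airway-like cells (-1.13) are the filled points past 2-fold.

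The 10% of type 2-like cells with the most Lgals3 UMIs held 59.4% of them in room air and 62.5% in hyperoxia. In hyperoxia the matching share was 37.4% for Krt8 and 37.0% for Krt18, 62.8% for Krt19, 74.4% for Sfn and 89.5% for Itgb6. Itgb6 had only 124 UMIs, in 98 of 850 cells, against 1782 UMIs for Krt8. Few UMIs alone give a high share, so that these shares are not an order of how restricted the genes were. Lgals3 was detected in 25.8% of type 2-like cells of room air and 46.2% in hyperoxia, at median depths of 15526 and 14077 UMIs per cell. After each cell was thinned to 2000 UMIs, which left out 5 cells of room air and 35 of hyperoxia, the shares were 5.06% (2.21 to 9.73) of 158 cells and 13.5% (11.2 to 16.0) of 815 cells, so that the intervals did not overlap.

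Krt8 was detected in 64.4% of type 2-like cells of room air and 72.7% in hyperoxia as deposited. At equal depth the shares were 21.5% (15.4 to 28.8) and 23.4% (20.6 to 26.5). Krt18 was found in 18.4% (12.7 to 25.3) and 24.7% (21.7 to 27.8) at equal depth, and Krt7 in 10.1% (5.90 to 15.9) and 11.7% (9.53 to 14.1). The intervals of all 3 keratins overlapped between the libraries. At 1000 UMIs per cell the order turned for Krt8 (14.8% and 11.6%) and Krt7 (7.41% and 6.75%), but not for Krt18 (9.88% and 12.2%). At 2000 UMIs per cell, Krt19 was found in 2.53% (0.69 to 6.35) and 5.03% (3.63 to 6.76), also with overlap. For Sfn (3.80% and 3.56%), Itgb6 (1.90% and 1.47%) and Cldn4 (0 of 158 cells, which allows a share of up to 1.90%, and 1 of 815 cells) detection was rare in both.

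Free RNA in the droplets can give UMIs to cells that do not express a gene, so the same shares were read in B-like cells (median depths 4515 and 2904 UMIs), which should lack epithelial keratins. After thinning, B-like cells had Krt8 in 0.26% of room-air and 0.87% of hyperoxia cells, and Krt7, Krt18 and Krt19 in at most 0.96%. The keratin shares of type 2-like cells lay above this background in both libraries, except Krt19 in room air, whose interval overlapped that of B-like cells (0.79%, 0.16 to 2.30). Sfn and Lgals3 did not have a clean background there, since B-like cells carried Sfn in 8.44% and 7.05% and Lgals3 in 7.65% and 6.96% of cells. By that measure Sfn in type 2-like cells of both libraries, and Lgals3 in type 2-like cells of room air, were at or below the B-like share.

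Fibroblast-like cells (median depths 17974.5 and 11832 UMIs), taken as a further background class after the B-like shares had been seen, had Lgals3 in 1.88% (0.51 to 4.74) and 3.29% (2.36 to 4.45) of cells and Sfn in 0.94% (0.11 to 3.35) and 0.082% (0.0021 to 0.46). Sfn in type 2-like cells overlapped this in room air, at 3.80% (1.41 to 8.08), and lay above it in hyperoxia, at 3.56% (2.40 to 5.07), so that its reading depended on the class taken as background. Lgals3 in type 2-like cells of hyperoxia, at 13.5%, was above both background classes. As a level, Lgals3 stood at 7.78 CPM and 14.8 CPM in fibroblast-like cells and 36.2 CPM and 40.4 CPM in B-like cells of room air and hyperoxia. It was thus also higher in hyperoxia among the fibroblast-like cells, and they were not alone in this. Cells like smooth muscle and pericytes had 19.1 and 31.1 CPM and dendritic-like cells 586 and 1060 CPM. Endothelial-like cells, at 14.1 and 11.3 CPM, and NK-like cells, at 202 and 187 CPM, were not higher. The part of free RNA in the type 2-like values was not tested.

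**Figure D3:**
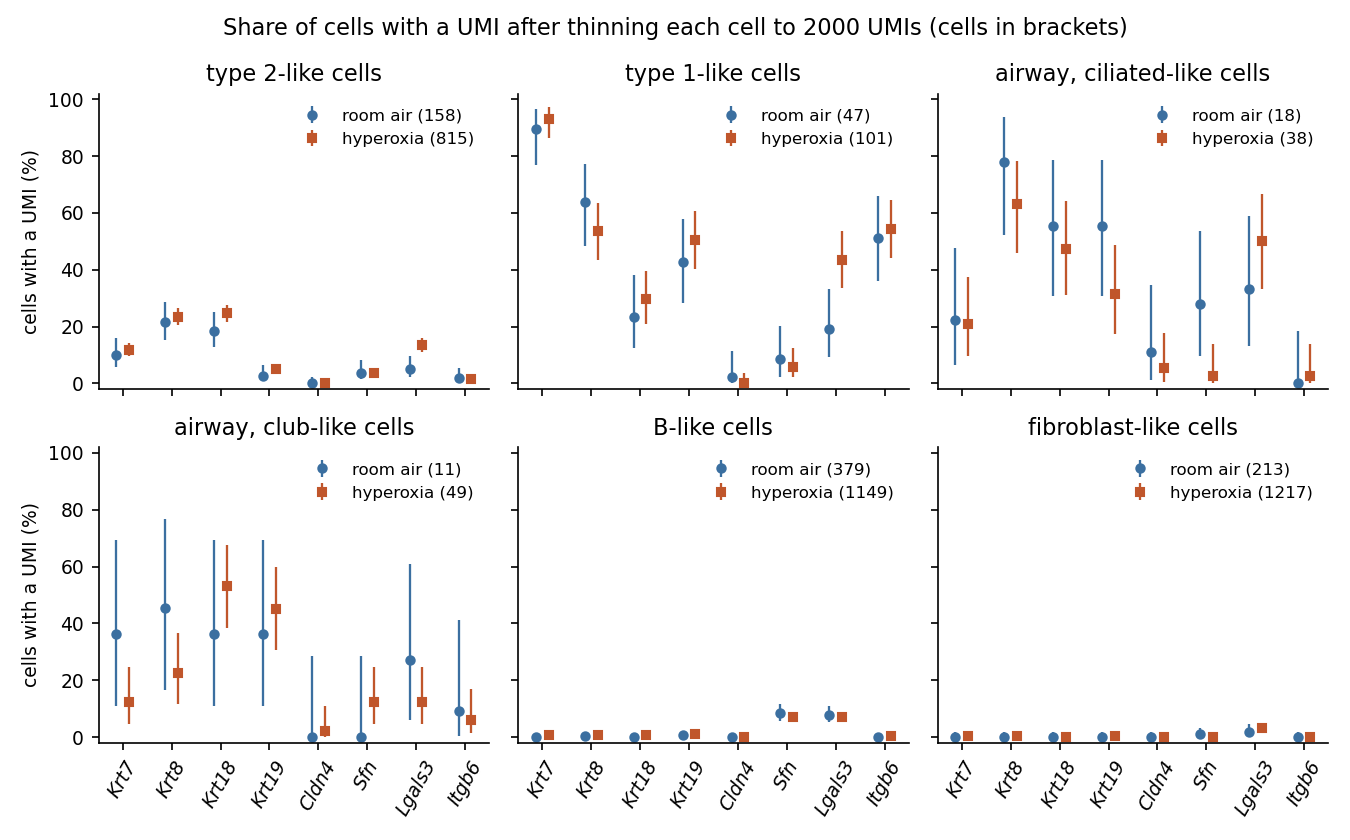
Percent of cells with at least 1 UMI of each member after each cell was thinned to 2000 UMIs, in 4 epithelial classes and in B-like and fibroblast-like cells. Circles are room air, squares hyperoxia, bars 95% Clopper-Pearson intervals, and the number of cells stands in each legend. Lgals3 in type 2-like cells was 5.06% and 13.5%, beside 1.88% and 3.29% in fibroblast-like cells.

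Macrophages are a rich source of Lgals3 in lung, and their markers were read beside it. In macrophage-like cells Lgals3 stood at 1835 CPM in room-air cells and 3074 CPM in hyperoxia cells, and there was 0.15 and 0.41 UMI of Lgals3 for each UMI of the macrophage markers. In type 2-like cells the macrophage markers summed to 17.3 CPM in room-air cells and 16.6 CPM in hyperoxia cells, and there were 1.52 and 6.76 UMIs of Lgals3 for each marker UMI. The part of macrophage RNA in the Lgals3 values was not tested.

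The type 2-like class was made of sub-clusters that the libraries filled unequally. Sub-cluster 2 held 133 cells of room air and 78 of hyperoxia, and sub-cluster 5, of low depth, 20 and 89, while sub-clusters 0 and 1 held 377 and 272 cells of hyperoxia and 1 and 6 of room air. Sub-cluster 11, led by haemoglobin genes, held 3 and 34. Where both libraries had at least 50 cells, in sub-cluster 2, 7 of the members differed more than in the class as a whole. There Lgals3 was 27.6 CPM in room-air cells and 204 CPM in hyperoxia cells, Krt8 106 and 215 CPM, Krt18 132 and 198 CPM, and Krt19 20.8 and 74.7 CPM. Itgb6 was 9.48 and 28.5 CPM, Sfn 24.8 and 44.5 CPM, and Krt7 76.8 and 109 CPM.

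The intervals of these 7 ratios lay above 0, from a log2 ratio of 0.50 (0.15 to 0.84) for Krt7 to 2.89 (2.47 to 3.32) for Lgals3, and Cldn4 had 4 and 5 UMIs. This comparison was chosen after the sub-clusters had been seen, and no background of all genes was counted for it. The same cells of hyperoxia held less Ager, a type 1 marker, than those of room air, at 949 and 1616 CPM, and more Hopx, another, at 72.1 and 33.4 CPM, while the surfactant gene Sftpc stood at 181290 and 214600 CPM.

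The hyperoxia cells of sub-clusters 0 and 1 were nearer to room air in most members. Krt8 stood at 162 CPM in sub-cluster 0 and 123 CPM in sub-cluster 1, and Krt7 at 77.8 and 49.8 CPM. Lgals3 stood at 136 and 53.5 CPM there, at 58.2 CPM in the hyperoxia cells of sub-cluster 5 and at 382 CPM in those of sub-cluster 11. Every hyperoxia group of at least 10 type 2-like cells was thus above the 27.6 CPM and 23.7 CPM of Lgals3 in the room-air cells of sub-clusters 2 and 5, although the interval of the latter was wide.

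**Figure D4:**
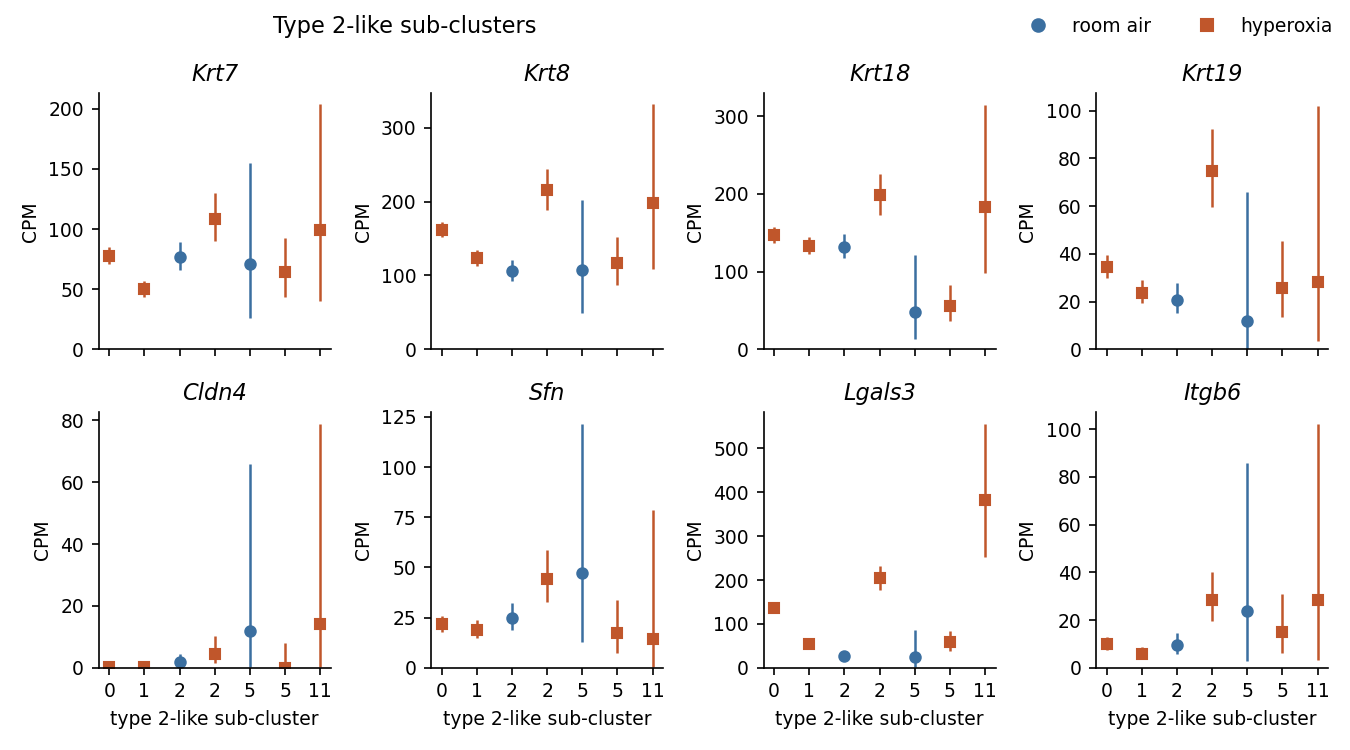
Level of each member in CPM in each type 2-like sub-cluster with at least 10 cells of a library, with 95% Poisson intervals. Circles are room air and squares hyperoxia, each panel has its own linear axis from 0, and numbers name the sub-clusters. Lgals3 ran from 53.5 to 382 CPM in the hyperoxia groups and from 23.7 to 27.6 CPM in the room-air groups.

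Cells carrying several members at once were few among type 2-like cells of both libraries. At 2000 UMIs per cell, at least 1 member was found in 46.2% of the room-air cells and 58.2% of the hyperoxia cells, and at least 2 in 15.8% (10.5 to 22.5) and 19.5% (16.8 to 22.4). At least 3 members were found in 2 of 158 cells of room air (1.27%, 0.15 to 4.50) and 36 of 815 cells of hyperoxia (4.42%, 3.11 to 6.06), and at least 4 in 0 cells, which allows a share of up to 1.90%, and in 7 cells. The share with 3 members was thus higher in hyperoxia by 3.15 percentage points, with overlapping intervals. In type 1-like cells the share with 3 members was 61.7% and 70.3%, in airway-like cells 44.8% and 37.9%, and in B-like and fibroblast-like cells 0 in both libraries, which allows shares of up to 0.79% and 0.26% in B-like and 1.41% and 0.25% in fibroblast-like cells.

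The 36 hyperoxia cells with at least 3 members were type 2-like by their surfactant genes. They held 301 UMIs of the type 2 markers per 2000 UMIs, against 392 in the 341 cells with none of the members, and 2.53 UMIs of the type 1 markers against 1.65. The list of other transitional-state genes had 5.75 UMIs in these cells and 2.37 in those with none. In room air, the 85 type 2-like cells with none of the members held 3.56 UMIs of the type 1 markers and 1.86 of that list. The type 1 marker UMIs of the 36 cells were thus fewer than those of room-air cells with no member. Markers of other lineages were low in the 36 cells and in the 341, at 0.08 and 0.04 UMI for myeloid and 0.33 and 0.28 for stromal markers. In hyperoxia, Krt18 was as frequent in cells without Krt8 as in cells with it. Krt18 was found in 24.6% of the hyperoxia type 2-like cells with Krt8 and in 24.7% of those without, while Lgals3 was found in 17.3% of those with Krt8 and 12.3% of those without.

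In type 1-like cells, the members other than Cldn4 and Sfn were high in both libraries, and no member with a mean of at least 50 CPM was past 2-fold. Krt7, Krt8, Krt18 and Krt19 were all lower in hyperoxia by their sums, while Lgals3 and Itgb6 differed by less than their counting error. Krt7 had 1495 CPM (1401 to 1592) in room-air cells and 1308 CPM (1248 to 1369.9) in hyperoxia cells, for a log2 ratio of -0.19 (-0.31 to -0.08). Krt8 was at 429 CPM (379.9 to 483) and 334 CPM (305 to 367), a log2 ratio of -0.36 (-0.58 to -0.14). Krt18 had 243 and 181 CPM, a log2 ratio of -0.42 (-0.72 to -0.12). Krt19 had the lowest ratio of these keratins, with 461 CPM (409 to 516) in room-air cells and 302 CPM (274 to 333) in hyperoxia cells, for a log2 ratio of -0.61 (-0.83 to -0.39). Type 2 markers moved with these values. They summed to 494 CPM in room-air cells and 3044 CPM in hyperoxia cells of sub-cluster 6 (28 and 63 cells) and to 1975 and 15752 CPM in sub-cluster 7 (24 and 53 cells), while the type 1 markers summed to 34882 and 29559 CPM and to 30127 and 20684 CPM there. Their part in the lower keratins was not tested.

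Itgb6 was a marked gene of type 1-like cells, at 456 CPM (405 to 511) in room-air cells and 467 CPM (432 to 505) in hyperoxia cells, for a log2 ratio of 0.04 (-0.17 to 0.24). Lgals3 stood at 260.1 CPM (222 to 303) and 307 CPM (278 to 338), a log2 ratio of 0.24 (-0.02 to 0.51). Sfn had 32 and 39 UMIs, or 50.1 and 28.4 CPM, a log2 ratio of -0.82 (-1.53 to -0.10), and Cldn4 had 2 UMIs in each library, a log2 ratio of -1.10 (-4.89 to 2.68). Cldn4 was thus scarce in type 1-like cells as well.

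Of the 3168 genes with a mean of at least 50 CPM in type 1-like cells, 26 (0.821%) were at least 2-fold higher and 38 (1.2%) at least 2-fold lower in hyperoxia. The 6 members among them had a median log2 ratio of -0.28, beside -0.04 for all. An interval below 0 was found for 15.6% of the genes and above 0 for 11.1%, against 4 and 0 of the 6 members.

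Detection at equal depth did not follow these sums. Of 47 and 101 type 1-like cells at 2000 UMIs, Krt19 was found in 42.6% (28.3 to 57.8) of room air and 50.5% (40.4 to 60.6) of hyperoxia, Krt18 in 23.4% and 29.7%, and Krt7 in 89.4% and 93.1%. Krt8 was found in 63.8% and 53.5%, and Itgb6 in 51.1% and 54.5%. The intervals overlapped for these 5 genes, and the higher shares of Krt7, Krt18 and Krt19 in hyperoxia went against their CPM, so that no order between the libraries is read from them. Lgals3 was found in 19.1% (9.15 to 33.3) and 43.6% (33.7 to 53.8), without overlap, but at 1000 UMIs per cell its shares were 20.3% (10.98 to 32.8) and 29.9% (22.1 to 38.7), with overlap.

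The lower Krt18 of hyperoxia depended on the sub-cluster that also carried Sftpc. Without its 11 and 22 cells the log2 ratio of Krt18 was -0.08 (-0.46 to 0.31), while that of Krt8 was -0.41 and that of Krt19 -0.65, and Lgals3 stood at 0.54 (0.22 to 0.87). In the 28 and 60 type 1-like cells with no UMI of 8 markers of other lineages, Krt18 was at 0.46 (-0.09 to 1.03) and Krt19 at 0.01 (-0.38 to 0.40), and Lgals3 at 0.92 (0.44 to 1.42). With the doublet rate doubled, Krt7 turned to 0.12.

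Type 1-like and type 2-like cells were also compared with each other within each library. Krt7 was 20.3-fold (17.3 to 24.0) higher in type 1-like than in type 2-like cells of room air and 18.5-fold (17.1 to 20.1) in hyperoxia. Itgb6 was 48.0-fold (31.4 to 77.0) and 44.1-fold (36.4 to 53.9) higher. The intervals of the libraries overlapped for both genes. For 4 members the gap was narrower in hyperoxia, from 20.3-fold (15.2 to 27.6) to 8.86-fold (7.70 to 10.2) for Krt19, from 9.84-fold (7.34 to 13.4) to 2.74-fold (2.45 to 3.06) for Lgals3, from 3.91-fold (3.29 to 4.65) to 2.20-fold (1.98 to 2.44) for Krt8, and from 1.87-fold (1.53 to 2.27) to 1.26-fold (1.101 to 1.44) for Krt18. The intervals of the libraries did not overlap for these 4. The type 1-like levels used here included the sub-cluster that also carried Sftpc and the type 2 markers given above. Their part in the narrower gaps was not tested.

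The airway-like cells were few and their 2 kinds are given apart. The ciliated-like cells of the libraries were not alike in their markers. Club markers summed to 306360 CPM in those of room air and 10788 CPM in hyperoxia, and ciliated markers to 3968 and 6207 CPM. The part of this difference in the ciliated-like ratios was not tested. In the 19 and 56 ciliated-like cells, Krt8 stood at 856 CPM (797 to 917) in room-air cells and 693 CPM (620.3 to 771) in hyperoxia cells, and Krt18 at 726 CPM (672 to 782) and 409.8 CPM (355 to 471). Lgals3 was higher in hyperoxia, at 251 CPM (219.7 to 285) and 634 CPM (565 to 709.8), a log2 ratio of 1.34 (1.09 to 1.59). Sfn was lower, at 204 CPM (176 to 235) and 85.3 CPM (61.2 to 116), a log2 ratio of -1.26 (-1.78 to -0.76). Cldn4 was lower too, with 54 UMIs (57.6 CPM) in room-air cells and 7 UMIs (14.6 CPM) in hyperoxia cells, for a log2 ratio of -1.98 (-3.37 to -0.84).

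In the 11 and 52 club-like cells the differences were smaller. Krt8 stood at 338 and 276 CPM, a log2 ratio of -0.29 (-0.51 to -0.08), Krt18 at 444 and 338 CPM, -0.39 (-0.58 to -0.20), and Krt19 at 464 and 539.5 CPM, 0.22 (0.05 to 0.39). Krt7 was at 109 and 147 CPM, a log2 ratio of 0.43 (0.08 to 0.78), and Cldn4 at 30.4 and 13.7 CPM, -1.15 (-2.03 to -0.29). The intervals of Lgals3 (133 and 119 CPM) and Sfn (75.4 and 58.4 CPM) took in no difference. The ratio of Lgals3 was 2.53 (2.13 to 3.01) in ciliated-like and 0.90 (0.71 to 1.14) in club-like cells, without overlap. The ciliated-like ratio compares cells whose club markers differed between the libraries, as given above.

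Taken as 1 class, airway-like cells had Sfn at 141 CPM (125 to 159.7) and 64.6 CPM (54.2 to 76.5), the only member past 2-fold with a mean of at least 50 CPM. Of the 2102 genes at that level, 39 (1.86%) were at least 2-fold higher and 28 (1.33%) at least 2-fold lower in hyperoxia, and 29.8% had an interval above 0 and 14.5% below 0. Of the 6 members among them, 3 lay above 0 (Krt7, Krt19 and Lgals3) and 3 below (Krt8, Krt18 and Sfn), with a median log2 ratio of -0.27, beside 0.11 for all genes. Depth moved with these differences, since the median was 22094 UMIs per ciliated-like cell in room air and 4068 in hyperoxia, and 73879 and 30436.5 per club-like cell. The mix of the kinds moved too. Ciliated-like cells held 937260 of the 1825395 UMIs of the class in room air and 480728 of the 2089609 in hyperoxia. Krt8 had a log2 ratio of -0.70 in the class, against -0.30 in ciliated-like and -0.29 in club-like cells. The part of this mix in the ratios of the class was not tested. Genes of the response to tissue dissociation, which reacts to how cells are isolated, were lower in hyperoxia for 11 of 12, with Atf3 at 343 and 123 CPM. Their part in these values was not tested. With the doublet rate doubled, the log2 ratios of Krt19 and Lgals3 turned to -0.34 each, and with median-of-ratios scaling 0 members had an interval above 0.

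Outside the alveolus and airway, the keratins were nearly absent from most classes. In room air Krt8 was next highest after the epithelial classes in B-like cells, at 3.97 CPM, beside 429 CPM in type 1-like and 109.8 CPM in type 2-like cells, and its levels in the other non-epithelial classes followed with overlapping intervals. Krt19 was an exception, with 240 CPM in macrophage-like cells of room air and 153 CPM in hyperoxia, between type 1-like and type 2-like cells in both libraries. The 32 mesothelial-like cells, found in hyperoxia only, had Krt19 at 899 CPM, Krt7 at 283 CPM, Krt8 at 238 CPM and Krt18 at 169 CPM, and thus the highest Krt19 of that library, but 0 UMIs of Cldn4 and Sfn, which allows a level of up to 7.45 CPM.

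Lgals3 had another pattern. In room air its levels ran from macrophage-like (1835 CPM) and monocyte-like cells (1790 CPM), which did not differ beyond their intervals, to dendritic-like (586 CPM) and neutrophil-like cells (579 CPM), and type 1-like cells came seventh. In hyperoxia macrophage-like (3074 CPM), monocyte-like (2162 CPM) and dendritic-like cells (1060 CPM) were apart from each other. Among the classes of at least 20 cells of room air, Sfn was highest in airway-like cells, at 141 CPM, and next in B-like cells, at 62.7 CPM, with an interval overlapping that of type 1-like cells. Itgb6 was type 1-like in both libraries, with type 2-like cells next in room air at 9.49 CPM.

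**Figure D5:**
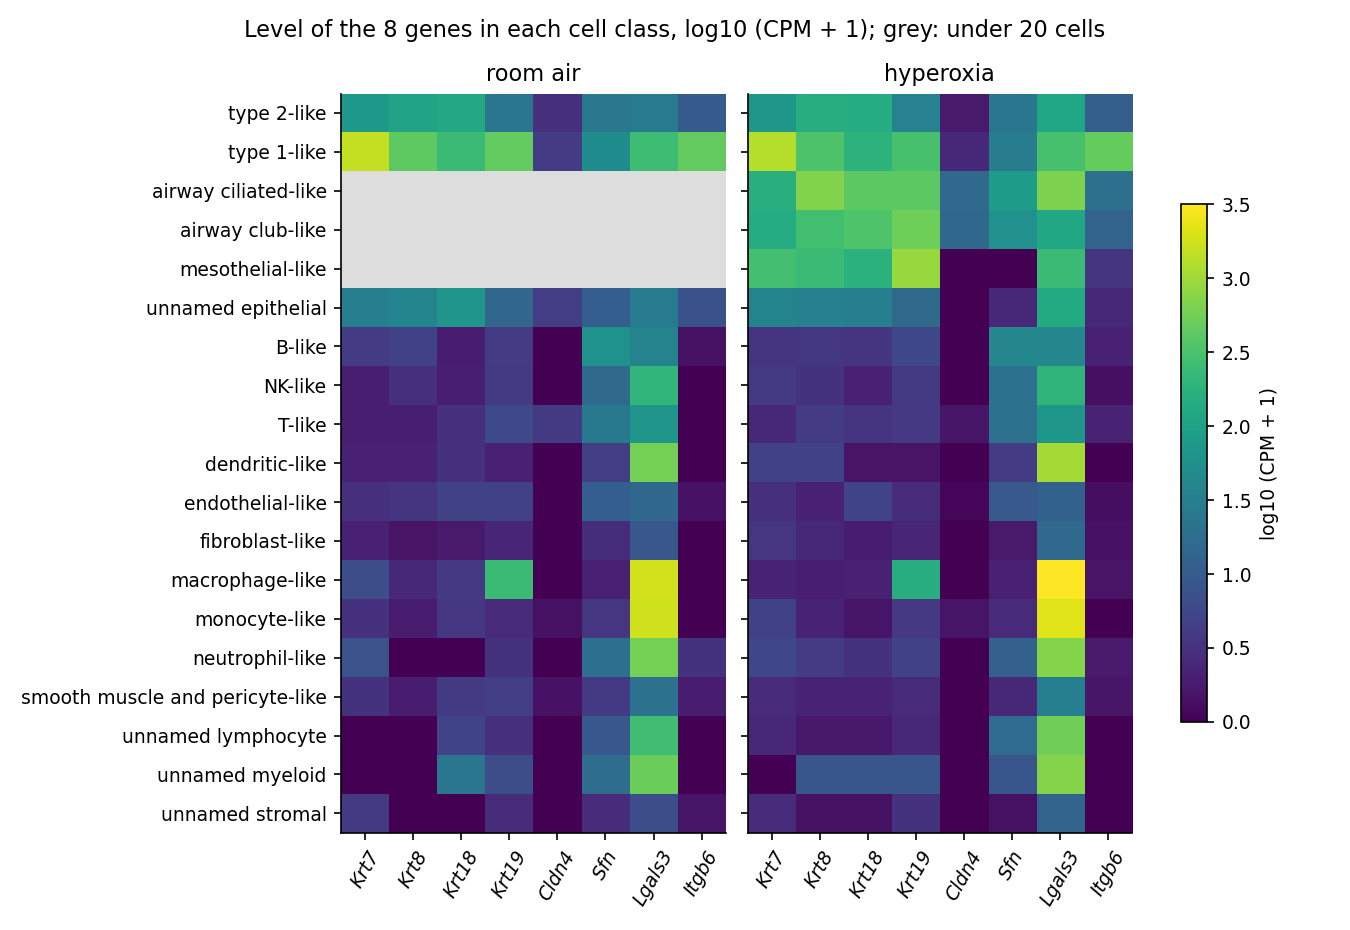
Level of each member as log10 (CPM + 1) in each cell class of room air (left) and hyperoxia (right), where lighter colours are higher and grey marks classes with under 20 cells. Colours are to be compared down a column, since the genes differ in length and capture. The keratins and Itgb6 were highest in epithelial and mesothelial-like cells, with Krt19 also in macrophage-like cells (240 and 153 CPM), and Lgals3 in macrophage-like cells (1835 and 3074 CPM).

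Over the 35 groups of at least 20 cells, each 1 class in 1 library, the keratins followed each other, with a Pearson r of log2 (CPM + 1) of 0.93 for Krt8 and Krt18, 0.92 for Krt7 and Krt8 and 0.80 for Krt8 and Krt19. Itgb6 followed Krt7 at 0.90. Lgals3 had an r of 0.29 with Krt19 and at most 0.07 with the other members, so that it shared little of their pattern over cell classes. These points share libraries and are a description. Among 8575 genes, those most like Krt8 were Cgn (0.95), Wwc1 (0.95) and Ppl (0.93), those most like Krt18 were Sh2d4a (0.96), Cobl (0.94) and Wfdc2 (0.92), and those most like Krt7 were Clic3 (0.97), Cgn (0.96) and Eps8l2 (0.94). Krt19 was nearest to Cgn (0.83), Fxyd3 (0.82) and Perp (0.81), and genes like Itgb6 included 2310007B03Rik (0.93) and S100a14 (0.92). For Lgals3 these were Snx10 (0.85), Diaph1 (0.84) and Stxbp2 (0.84), for Sfn Hip1r (0.79), Map7 (0.76) and Swt1 (0.75), and for Cldn4 BC048546 (0.86), Tspan1 (0.86) and Cckar (0.85).

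The other genes of the transitional state were read from a list of 22, of which 20 were in the table. In type 2-like cells, 7 reached 50 CPM, and their median log2 ratio was 0.22. The intervals lay above 0 for 4 of them and below for 1, beside 33.4% and 22.1% of all genes tested. Cdkn1a, which encodes the cell cycle inhibitor p21, stood at 33.8 CPM in room-air cells and 347 CPM in hyperoxia cells, for a log2 ratio of 3.36 (3.04 to 3.69), and was the only one past 2-fold. S100a6 (43.3 and 57.4 CPM) and Anxa1 (47.5 and 61.9 CPM) were higher by log2 ratios of 0.41 and 0.38, and Sox4, a transcription factor, was lower at 199 and 156 CPM. In type 1-like cells 10 reached 50 CPM, with a median log2 ratio of 0.14. Cdkn1a was at 43.9 and 139.9 CPM, a log2 ratio of 1.67, and Ctgf at 431 and 587 CPM, while S100a6 was lower, at 4885 and 2894 CPM. In airway-like cells 10 reached it as well, with 0 past 2-fold, a median of 0.13, Nupr1 higher at 395 and 737 CPM and Cyr61 lower at 196 and 105 CPM.

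The members' own gene families were read from lists in type 2-like cells. The 6 other 14-3-3 genes, the family of Sfn, all reached 50 CPM, with 0 past 2-fold and a median log2 ratio of 0.09. Of 12 other claudin and tight junction genes, 6 reached it, with 0 past 2-fold and a median of -0.03, and Cldn18, the claudin of alveolar cells, stood at 1316 CPM in room-air cells and 1129 CPM in hyperoxia cells. Of 10 other keratins, Krt23 alone reached it, at 62.3 and 42.3 CPM. Of 14 genes of epithelial integrins and TGF-beta activation, 2 did, 1 of them with an interval above 0, Itgb1 at 219 and 246 CPM, and of 7 other galectins 0 did. None of 11 cell cycle genes reached it either, and they summed to 148 CPM in room-air cells and 68.4 CPM in hyperoxia cells. In type 1-like cells, Lgals1, another galectin, was at 67.4 and 110.0 CPM, a log2 ratio of 0.71 (0.21 to 1.23).

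Markers of the mature alveolar types differed beside the members. The 8 type 2 markers were all lower in type 2-like cells of hyperoxia, 7 of them with an interval below 0, at a median log2 ratio of -0.45, led by Etv5 (403 and 196 CPM, -1.04) and Cxcl15 (7436 and 4313 CPM, -0.79). Of the 10 type 1 markers, only 2 reached 50 CPM in the same cells, and both were lower. Ager went from 1599 to 525 CPM, a log2 ratio of -1.61 (-1.67 to -1.55), and Aqp5 from 208 to 141 CPM, -0.56. A lower level of the type 1 markers in general is not read from these 2. Type 2-like cells of hyperoxia thus held more Lgals3, Krt8 and Krt19 beside less Ager and Aqp5. Of 12 genes of the dissociation response, 9 reached 50 CPM there, 3 with an interval above 0 and 4 below, at a median of -0.10. Markers of other lineages were under 120 CPM when summed in type 2-like cells, stromal markers at 80.1 CPM in room-air cells and 111 CPM in hyperoxia cells, endothelial at 47.5 and 67.7 CPM and myeloid at 31.8 and 26.1 CPM. Their part in the members' values was not tested.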

How the data were processed

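Single-cell suspensions of whole mouse lung were run on 10x Genomics droplets, 1 pooled library per group. The deposited values are raw UMI counts per gene and barcode, made by the authors with Cell Ranger and already limited to called cells. The submitters' processing notes name version 2.1.1 and build mm10, while the methods and the file header name other versions, and the labels and the methods name different kit chemistries, so that the version used is uncertain.

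Barcodes under 500 genes or over 20% mitochondrial UMIs were dropped. Doublets were scored against simulated doublets among 20 neighbours and removed at 0.8% per 1000 cells (129 and 1239 barcodes). The neighbourhood was set after a wider one had been seen to remove small classes. Cells were clustered without the 8 members on 2000 variable genes and 30 components (leidenalg 0.10.2, resolution 1, scikit-learn 1.9.0, numpy 2.4.6, Python 3.11.15) and named by markers. The room-air library held 39593888 UMIs and the hyperoxia library 111934936.

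Counts were summed by class and library. Levels have exact Poisson intervals, ratios exact conditional binomial intervals, and shares Clopper-Pearson intervals, all at 95% (scipy 1.17.1). They cover counting error only, not the spread between mice. With 1 library per group, no test was run. Ratios were counted over genes with a mean of at least 50 CPM, and a limit for 0 counts was set at 3 counts. Interval coverage was tested on simulated data. Gene places came from GENCODE on GRCm38, and promoters from RefSeq. The list genes named were those with the largest log2 ratios whose interval left out 0, up to 4 per list, and for likeness the 3 genes with the highest r. A gene that this rule named is not reported here. The members and lists were chosen with earlier results of these data known. Alternatives covered doublets, filters, clustering, naming, scaling, thinning and left-out sub-clusters. Cell types were rebuilt here, since annotations by the authors were not used.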

Additional observations from a re-analysis of the deposited data

Results flagged for a closer look

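Some members lay on opposite sides of 0 in different epithelial classes, by the intervals of their ratios between the libraries. The differences themselves were not tested, since each class had 1 library per group. Krt8 was higher in hyperoxia in type 2-like cells and lower in type 1-like cells, so that its log2 ratios differed by 0.83. It was lower in airway-like cells too, where the difference from type 2-like cells was 1.17. That airway-like ratio was -0.70 as 1 class, but -0.30 in ciliated-like and -0.29 in club-like cells. Krt19 differed by 1.196 between type 2-like and type 1-like cells. It was higher in hyperoxia in airway-like cells, and the type 1-like ratio minus the airway-like ratio was -0.77. For Krt7, lower in type 1-like and higher in airway-like cells, this difference was -0.47. In ciliated-like cells alone the intervals of Krt7 and Krt19 took in 0, at 0.18 (-0.25 to 0.61) and -0.14 (-0.39 to 0.11). In club-like cells both intervals lay above 0. The airway-like ratios of Krt7 and Krt19 turned their direction under some of the settings below.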

How the results depend on the processing

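With 1 pooled library per group, no replicate could be left out. No paired analysis was possible because each group holds 1 library. Of 309 alternative values for the members' ratios, 255 stayed within the counting interval of the reported ratio and 41 moved outside it. A further 13 turned, which was counted only for ratios whose interval left out 0. Where the interval took in 0, a change of direction was not counted, as in 3 of 14 alternatives for Krt7 in type 2-like cells. No type 2-like ratio that left out 0 turned. The cause was not tested for any of them.

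In type 2-like cells, the log2 ratio of Lgals3 ran from 1.84 to 2.89, that of Krt8 from 0.26 to 1.02 and that of Krt19 from 0.21 to 1.85, each value above 0 in 14 of 14 alternatives, but the interval of Krt19 took in 0 without doublet removal (-0.15 to 0.59) and that of Krt8 did in cells with no UMI of other lineages (-0.01 to 0.54), so that 2 members in place of 3 had an interval above 0 in each. The highest values, and 7 members with an interval above 0 in place of 3, came from the sub-cluster with at least 50 cells of both libraries. The share of all genes with such an interval was not counted for that sub-cluster or for the other settings. It was 33.4% in the whole type 2-like class, so that the 7 are not read as a result about the members. Without doublet removal, 1 member had an interval below 0 in place of 0.

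In type 1-like cells, Krt7 turned to 0.12 with the doublet rate doubled and to 0.0923 with the wide doublet neighbourhood, and Krt18 to 0.14 as a mean over single cells. In cells with no UMI of 8 markers of other lineages, Krt18 was at 0.46, Krt19 at 0.006 and Sfn at 0.27. Members with an interval above 0, none in the report, numbered 2 with the doubled rate and with the wide neighbourhood. They numbered 1 with stricter filters (at least 1000 genes, at most 10% mitochondrial UMIs), naming by each cell's own score, totals without mitochondrial, ribosomal and haemoglobin genes, median-of-ratios scaling, no UMI of other lineages, and without the sub-cluster that also held type 2 markers. Members with an interval below 0, 5 in the report, numbered 1 with the doubled rate and with no UMI of other lineages, 2 with the wide neighbourhood and 3 without that sub-cluster.

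In airway-like cells, the doubled rate gave -0.34 for Krt19, -0.34 for Lgals3 and -1.44 for Sfn, and the wide neighbourhood -3.63, -1.63 and -2.75 for these genes and -0.87 for Krt7. The mean over single cells gave -0.0764 for Krt7, -0.60 for Krt19 and -1.96 for Sfn, and cells with no UMI of other lineages gave -0.73 for Sfn. Members with an interval above 0 numbered 0, in place of 3, with the doubled rate, own-score naming, median-of-ratios scaling and the wide neighbourhood. Those below 0 numbered 2 with no UMI of other lineages and 7 with the wide neighbourhood, in place of 4. At 1000 UMIs per cell, 0 members had a higher share in hyperoxia, in place of 2.

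The number of genes past 2-fold depended on the level required. With a mean of at least 10 CPM, 93 were higher and 138 lower in type 2-like cells, 262 and 287 in type 1-like and 199 and 159 in airway-like cells. With at least 200 CPM, these were 10 and 13, 5 and 6, and 11 and 10. The wide neighbourhood, the left-out and single sub-clusters and the fibroblast-like background were chosen after seeing the data. Depth limits Cldn4, which rested on 5 and 9 UMIs in type 2-like cells, and the number of cells, 30 and 108, limits the airway-like values.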

Other observations

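The cells of the epithelial clusters that stayed unnamed, 64 in room air and 341 in hyperoxia, carried the members at low levels. Krt8 stood at 36.7 CPM in room-air cells and 32.4 CPM in hyperoxia cells, Krt18 at 66.8 and 30.9 CPM, and Krt7 at 30.05 and 37.1 CPM. Their Lgals3 was 26.7 CPM (11.5 to 52.6) in room-air cells and 137 CPM (110.4 to 169) in hyperoxia cells, without overlap of the intervals. These cells had few UMIs each, and the values are given without a class name. They were not the same mixture in the libraries. The largest of their sub-clusters, with 34 cells of room air and 123 of hyperoxia, was led by genes that included the stromal markers Mfap4 and Tcf21. It held Sftpc at 962 and 3802 CPM. A further sub-cluster held 7 cells of room air and 137 of hyperoxia, with the endothelial marker Cldn5 among its leading genes. Another held Sftpc at 99280 CPM in room-air cells and 1523 CPM in hyperoxia cells. The part of this mixture in the Lgals3 values was not tested.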
